A study of Macaca mulatta with 4 samples.

Results

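Contactins and contactin-associated proteins are cell adhesion molecules of axons and glia, and 9 of their genes were followed across the cells of the fetal rhesus macaque cerebellum. They comprise 6 contactins, CNTN1 to CNTN6, and 3 contactin-associated proteins, CNTNAP2, CNTNAP4 and CNTNAP5. The genes were selected by name from the 30807 genes of the count matrices, by a rule that uses no measured value, although earlier results of these data were known when it was set. Of these, 8 carry their symbol in the gene list, while CNTNAP4 was found by its gene identifier, ENSMMUG00000003916. Their UMIs were counted in barcodes with at least 500 detected genes, here called nuclei.

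Contactins are attached to the outer face of the cell membrane by a lipid anchor and bind other adhesion molecules through immunoglobulin and fibronectin domains. Contactin-associated proteins cross the membrane and belong to the neurexin superfamily. In myelinated axons, contactin-1 and CNTNAP1 form the axonal side of the paranodal junction, and contactin-2 and CNTNAP2 gather potassium channels beside it. In the developing cerebellum contactin-2, also known as TAG-1, is a known marker of granule cells that have just left the cell cycle and begin to extend their parallel fibers.

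Nuclei came from the frozen cerebellar hemisphere and part of the vermis of 4 fetuses, and each fetus gave 1 single-nuclei RNA-seq library on the 10x Genomics platform. The Control group was a female and a male fetus without intervention, both at 130 days of gestation. The LPS group was a female fetus of 131 days and a male fetus of 133 days, whose mothers had received 1 mg of E. coli lipopolysaccharide (LPS) into the amniotic fluid 5 days before delivery. No group received a saline injection, and the groups differ slightly in age. The study asked how inflammation of the fetal membranes alters cerebellar development.

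The libraries held between 34282015 and 61665690 UMIs and between 6890 and 9250 nuclei, 32565 in all, of which 29522 fell in 15 classes named by marker genes. A class name stands here for nuclei that resembled that class by its markers. The female libraries had more UMIs per nucleus, here called depth, than the male ones. Their medians were 4508 (Control) and 4063 (LPS) against 1882 (Control) and 2308.5 (LPS). They also had more mitochondrial UMIs, at 0.264 and 0.212% against 0.0214 and 0.0318%. Sex therefore cannot be told apart from depth. Total UMIs did not divide the sexes, the LPS male library having 56935290 and the LPS female 41642819. The LPS male library stood apart from the other 3. Of its UMIs 38.7% were in nuclei, against 58.7 to 73.9% elsewhere, and RNA from outside the nuclei (free RNA) made up an estimated 22.8% of its granule UMIs, against 12.8 to 16.0%. Mature granule cells made up 34.3% of its granule nuclei, against 6.84 to 9.27%. Pairs of libraries shared between 0.231 and 0.276% of the barcodes of the smaller one.

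Levels below are CPM, the UMIs of a gene per 1000000 UMIs summed over a class in each library, listed as Control female, Control male, LPS female and LPS male, with the mean ± SD over these 4 libraries. They are not corrected for gene length, so levels were compared between cells and not between genes. Because the classes come from clusters of the same nuclei, differences between them are descriptions without a test. The order of levels covers the 13 classes with enough UMIs in every library. It leaves out mural cells (31 nuclei) and choroid or ependymal cells (39 nuclei).

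Among the neuronal and glial classes the members fell into distinct patterns. CNTN3 and CNTNAP5 were highest in Purkinje cells with no overlap with the next class in the order. CNTNAP4 was highest in unipolar brush cells and Golgi cells. CNTN1 was highest in astrocytes, oligodendrocytes and granule nuclei, CNTN2 in oligodendrocytes and granule nuclei, and CNTN4, CNTN5, CNTN6 and CNTNAP2 were shared by several neuronal classes.

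**Figure D1:**
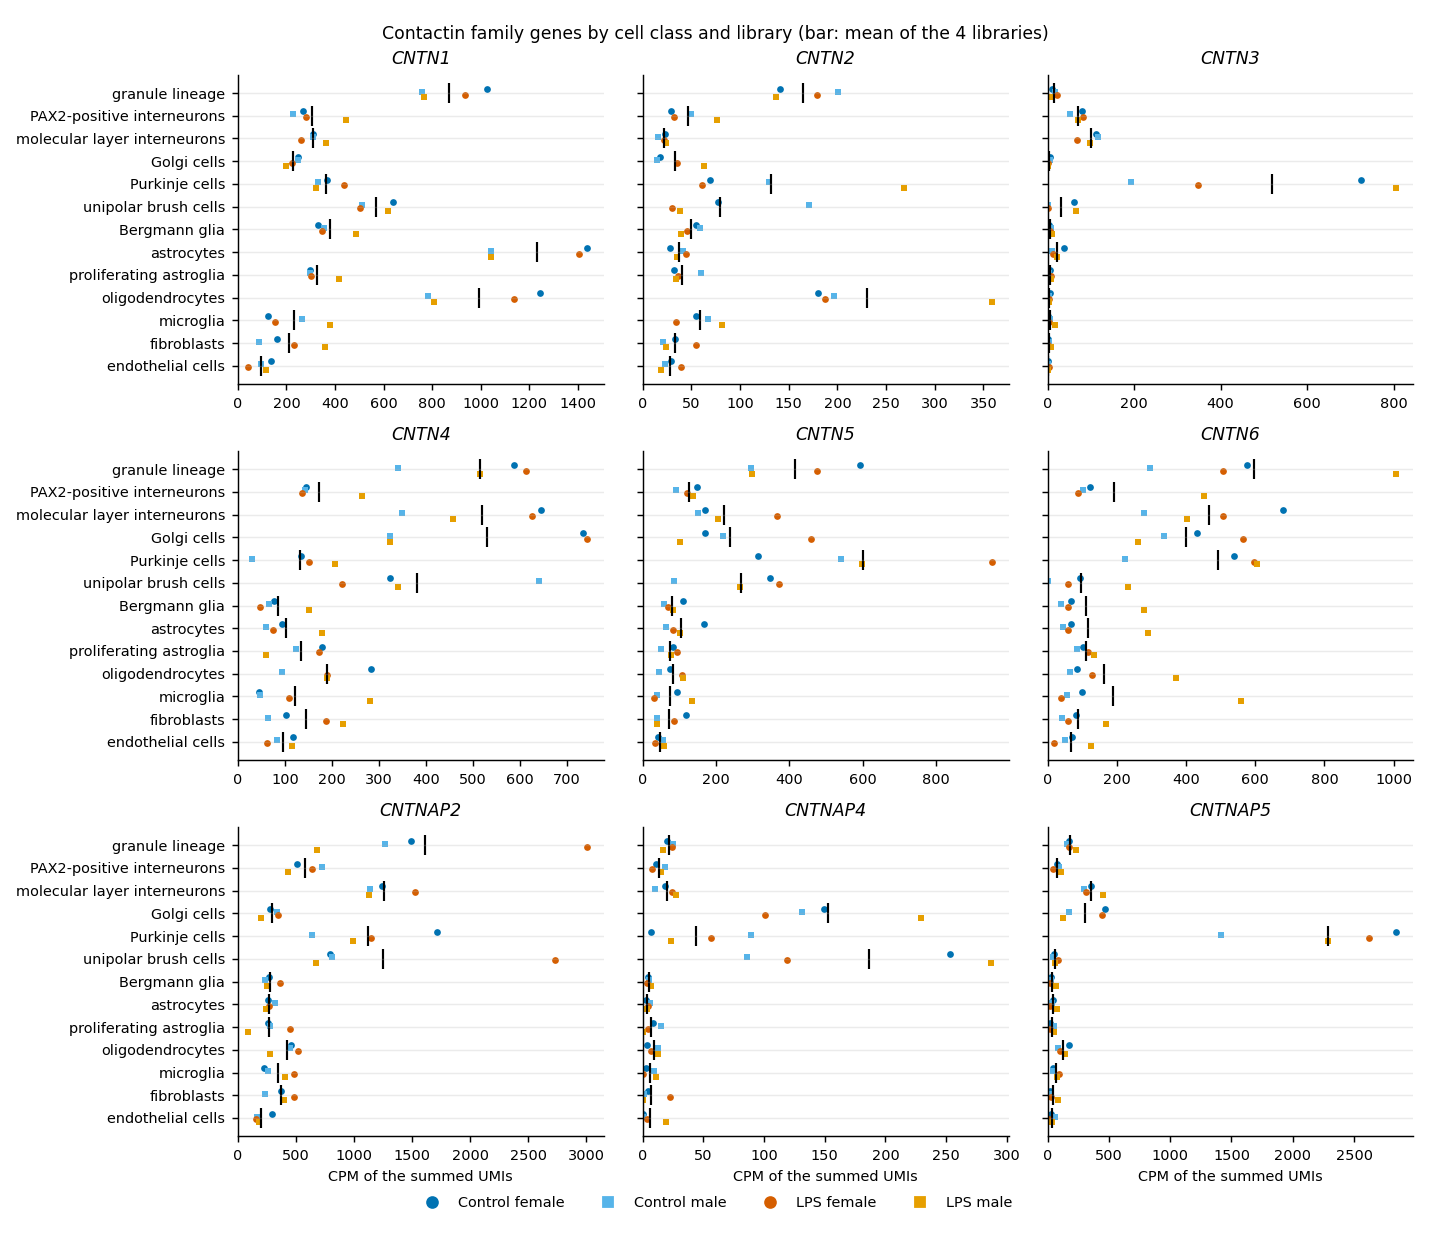
Level of each of the 9 genes (horizontal axes, CPM of the summed UMIs, each on its own linear scale from 0) in 13 cell classes. Each point is 1 library, with circles for female and squares for male fetuses, and the black bar is the mean of the 4 libraries. CNTNAP5 in Purkinje cells lies between 1415 and 2842 CPM, above every other class.

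CNTN1, the contactin of the paranodal junction, had 1437, 1043, 1403 and 1044 CPM in astrocytes (1232 ± 218, SD, n = 4). Oligodendrocytes had 1245, 781, 1137 and 807 CPM (993 ± 233), and granule nuclei 1024, 758, 934 and 768 CPM (871 ± 130). In every library the order was astrocytes, oligodendrocytes, granule nuclei, although the ranges of neighbours overlapped. Unipolar brush cells followed at 568 ± 69.3 CPM, below the range of granule nuclei, and endothelial cells were lowest at 96.0 ± 41.2 CPM. To compare nuclei of unequal depth, each was thinned to 1000 UMIs. CNTN1 was then found in 55.6% of astrocytes, 54.2% of oligodendrocytes and 50.8% of granule nuclei, means of the 4 libraries, against 11% of microglia, given here and below for comparison. Microglia had 124, 263, 154 and 380 CPM of CNTN1, and 40.9, 144, 100 and 275 CPM with free RNA subtracted.

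CNTN2 had 180, 196, 187 and 359 CPM in oligodendrocytes (230 ± 85.7) and 141, 200, 179 and 137 CPM in granule nuclei (164 ± 30.5). These 2 classes overlapped, and so did Purkinje cells, at 132 ± 96.0 CPM. The other 10 classes had means of 78.9 CPM or less. In free RNA CNTN2 had 170, 119, 199 and 93.6 CPM, and the 9 classes below unipolar brush cells in the order had less than this in every library. Granule nuclei and Purkinje cells also had less in both female libraries, and oligodendrocytes in the LPS female library. Unipolar brush cells had more only in the Control male library.

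CNTN3, also known as BIG-1, had 725, 193, 349 and 806 CPM in Purkinje cells (518 ± 294), 5.21-fold the mean of molecular layer interneurons (99.4 ± 21.9). Even its lowest Purkinje value was above the highest of any other ordered class. Choroid or ependymal cells, outside the order, had 573, 0, 372 and 0 CPM on 2, 3, 21 and 13 nuclei. In the LPS female library this was above Purkinje cells. PAX2-positive interneurons, an immature inhibitory population, had 71.4 ± 13.1 CPM and granule nuclei 14.5 ± 6.17 CPM. Golgi cells, which are inhibitory interneurons as well, had 3.27 ± 2.94 CPM. After thinning, CNTN3 was found in 33.1% of Purkinje cells and 0.722% of microglia.

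CNTN4, a contactin that binds the amyloid precursor protein, had almost equal means in Golgi cells, molecular layer interneurons and granule nuclei, at 532 ± 240, 520 ± 141 and 515 ± 123 CPM. Granule nuclei had 588, 341, 614 and 515 CPM. In Golgi cells the 2 female libraries had 735 and 744 CPM and both male libraries 324 CPM. Purkinje cells, at 131 ± 73.9 CPM, had less than each of these 3 classes in every library. Mural cells, outside the order, had 293, 169, 870 and 507 CPM of CNTN4 on 7, 9, 9 and 6 nuclei. In free RNA CNTN4 had 340, 281, 302 and 435 CPM. The mural level was below this in both Control libraries and above it in both LPS libraries.

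CNTN5, also known as NB-2, had 314, 542, 952 and 598 CPM in Purkinje cells (602 ± 264) and 592, 295, 475 and 298 CPM in granule nuclei (415 ± 145). The ranges overlapped, and in the Control female library granule nuclei were the higher class. Molecular layer interneurons (223 ± 98.5 CPM) were above PAX2-positive interneurons (125 ± 25.0 CPM) in all 4 libraries without overlap.

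CNTN6, also known as NB-3, was spread over granule nuclei, Purkinje cells, molecular layer interneurons and Golgi cells, with means of 596, 492, 468 and 399 CPM. The ranges of these neurons overlapped. Molecular layer interneurons had 680, 279, 507 and 404 CPM and Golgi cells 433, 336, 564 and 261 CPM, a female library being the highest in both. In granule nuclei the libraries had 576, 296, 506 and 1007 CPM, the LPS male being the highest. That library was also the highest in classes with little CNTN6 elsewhere: microglia had 100, 57.3, 37.6 and 559 CPM and astrocytes 69.2, 44.8, 58.0 and 291 CPM. In its free RNA CNTN6 had 827 CPM, against 210 to 329 CPM in the other 3 libraries. With free RNA subtracted, granule nuclei had 615, 313, 548 and 1059 CPM and microglia 64.6, 10.3, 14.4 and 473 CPM. Astrocytes then had 18.2, 4.32, 29.2 and 65.3 CPM, the LPS male library still being the highest in each of these classes. The part of free RNA in its values was not tested.

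CNTNAP2, the juxtaparanodal partner of CNTN2, had 1491, 1269, 3006 and 678 CPM in granule nuclei (1611 ± 992). The LPS female library was the highest and the LPS male the lowest, so that the Control libraries lay between the LPS libraries. Molecular layer interneurons (1260 ± 186 CPM), unipolar brush cells (1253 ± 987 CPM) and Purkinje cells (1124 ± 449 CPM) overlapped with granule nuclei. Every glial and vascular class in the order had a mean of 428 CPM or less. Thinned to 1000 UMIs, 52.9% of granule nuclei and 16.6% of microglia held a CNTNAP2 UMI.

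CNTNAP4 had few UMIs, 2458 in all nuclei. Unipolar brush cells had 253, 85.5, 119 and 287 CPM (186 ± 98.9) and Golgi cells 150, 131, 100 and 229 CPM (153 ± 55). These overlapped with each other, and Golgi cells were above Purkinje cells (43.8 ± 36.7 CPM) without overlap. Only 76 unipolar brush cells, between 8 and 37 per library, lie behind the first value.

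CNTNAP5 had 2842, 1415, 2622 and 2287 CPM in Purkinje cells (2291 ± 628), 6.48-fold the mean of molecular layer interneurons (354 ± 67.1). The classes did not overlap, although the Purkinje values rest on 129 nuclei, 32, 56, 23 and 18 per library. Purkinje markers summed to between 23755 and 33259 CPM in these nuclei and between 322 and 550 CPM in granule nuclei. The class was named by these markers, so their sums do not test its label. Granule markers summed to 10395, 7806, 9754 and 10428 CPM in the Purkinje nuclei, against 11664 to 15580 CPM in granule nuclei. After thinning, 79.2% of Purkinje cells had a CNTNAP5 UMI, against 12.9% of granule nuclei and 5.53% of microglia.

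Granule cells are born in the external granular layer, leave the cell cycle, migrate inwards past Purkinje cells and mature in the internal granular layer. The 22489 granule nuclei formed 8 clusters, ordered by stage markers from proliferating precursors to mature cells, and the contactin genes were left out of the features used for clustering. The members differed in their course along these stages, and some shared one. CNTN2 was highest in migrating cells and the KIAA1217 cluster of maturing cells, CNTN1 and CNTN5 in the CHRM3 cluster, CNTNAP2, CNTNAP5 and CNTN3 in the last clusters, and CNTN4 and CNTN6 were high at both ends and low between.

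**Figure D2:**
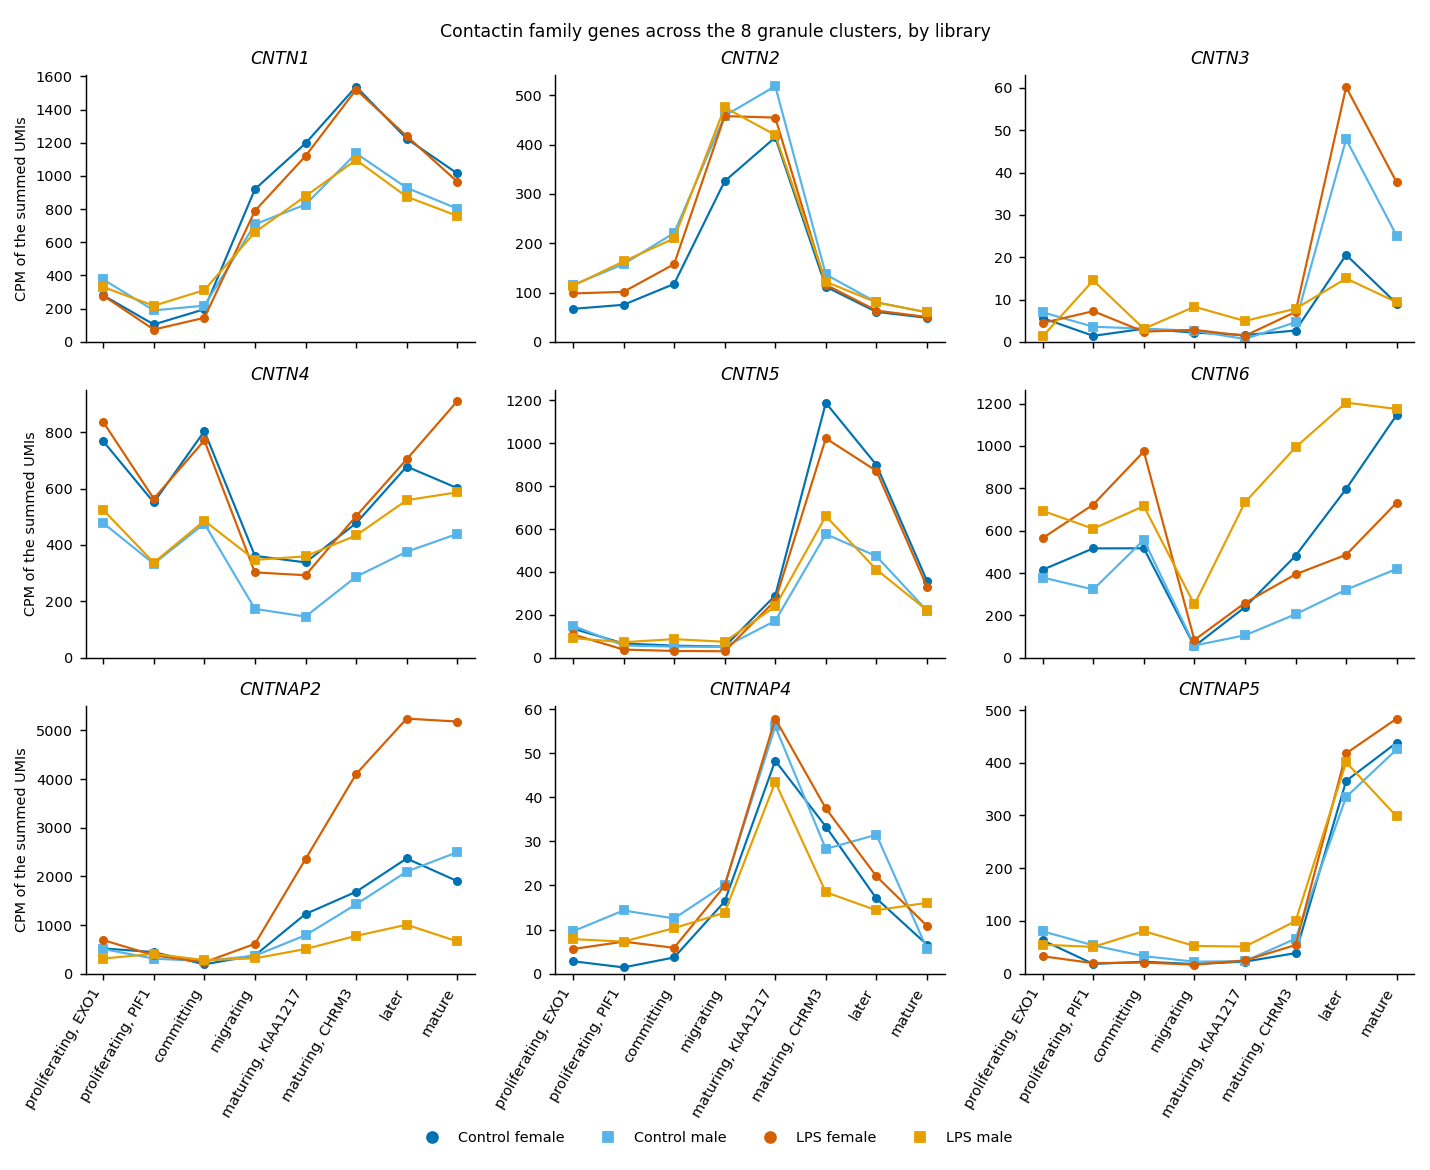
Level of each gene (vertical axes, CPM of the summed UMIs, linear from 0) in the 8 granule clusters, ordered from proliferating precursors on the left to mature granule cells on the right. Each line and marker is 1 library, and CNTN2 reaches 326 to 519 CPM in migrating cells and in the KIAA1217 cluster of maturing cells in all 4.

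CNTN2 had 98.6 ± 22.4 CPM in the EXO1 cluster of proliferating precursors, 124 ± 43.0 CPM in the PIF1 cluster and 176 ± 48.0 CPM in committing cells. Migrating cells had 326, 458, 458 and 476 CPM (429 ± 69.6) and the KIAA1217 cluster of maturing cells 415, 519, 455 and 420 CPM (452 ± 47.9). These 2 clusters overlapped with each other and with no other stage. The CHRM3 cluster of maturing cells was at 122 ± 10.9 CPM and mature cells were at 54.8 ± 5.97 CPM. The KIAA1217 cluster took its name from 5 of 8 markers.

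CNTN1 had 218 ± 69.8 CPM in committing cells and 770 ± 113 CPM in migrating cells, which did not overlap. It was highest in the CHRM3 cluster, with 1538, 1136, 1520 and 1097 CPM (1323 ± 239), and had 886 ± 124 CPM in mature cells. From the migrating stage on both female libraries were above both male libraries.

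CNTN5 rose later than CNTN1. In the EXO1 cluster of proliferating precursors its level was above that of migrating cells in every library, without overlap. CNTN5 had 51.9 ± 18.1 CPM in migrating cells, 242 ± 51.0 CPM in the KIAA1217 cluster and 1188, 576, 1023 and 660 CPM (862 ± 291) in the CHRM3 cluster. It was at 664 ± 257 CPM in later granule cells and 283 ± 73.0 CPM in mature cells, which did not overlap.

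CNTNAP2 followed a similar course but was still high in mature cells. It had 418 ± 132 CPM in migrating cells, 1220 ± 813 CPM in the KIAA1217 cluster and 1997 ± 1455 CPM in the CHRM3 cluster. Later granule cells had 2368, 2098, 5245 and 1006 CPM and mature cells 1903, 2497, 5184 and 663 CPM. The LPS female library was the highest and the LPS male the lowest in each of these last 4 clusters, whereas in the 3 clusters before migration the libraries were within 191 to 690 CPM.

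CNTNAP5 differed most between neighbouring stages late in the series. It had 38.9, 66.3, 54.3 and 99.6 CPM in the CHRM3 cluster (64.8 ± 25.8) and 366, 335, 418 and 401 CPM in later granule cells (380 ± 36.9), a 5.86-fold higher mean with no overlap. Mature cells had 411 ± 79.6 CPM and overlapped with later cells. CNTN3 had its highest granule values in the same clusters, at 35.9 ± 21.6 and 20.3 ± 13.8 CPM, and no other cluster had a mean over 6.69 CPM. CNTNAP4 was highest in the KIAA1217 cluster (51.4 ± 6.72 CPM), without overlap with the CHRM3 cluster at 29.4 ± 8.20 CPM.

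CNTN4 and CNTN6 were both low at migration. CNTN4 had 634 ± 177 CPM in committing cells, 296 ± 85.6 CPM in migrating cells, 284 ± 96.2 CPM in the KIAA1217 cluster and 634 ± 198 CPM in mature cells. CNTN6 had 517, 557, 974 and 716 CPM in committing cells and 54.6, 57.7, 83.8 and 252 CPM in migrating cells. It was lower in migrating cells in every library, and no value overlapped. Mature cells were at 1147, 420, 733 and 1175 CPM, again above every migrating value.

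Of the 467 oligodendrocytes, 427 fell into proliferating precursors, oligodendrocyte precursor cells, premyelinating cells and mature cells. The other 40 nuclei, 8, 6, 7 and 19 per library, formed a cluster that took no stage name, with TRPC7, HCRTR2 and UNC13C among its leading genes. Granule markers summed to between 10935 and 13188 CPM in this cluster, above its oligodendrocyte markers in every library (3769 to 5439 CPM), and 37.5% of its nuclei were marked as doublets, against 3.51% in the 4 stages. By library the share was 87.5, 66.7, 57.1 and 0%, the 0 of 19 nuclei in the LPS male library allowing up to 15.8%, and without that library it was 71.4%. Their own markers summed to between 13908 and 17242 CPM, and microglial markers to between 47.2 and 65.8 CPM, in all 467 nuclei. Markers of granule cells summed to 4958, 4849, 4527 and 6376 CPM in all of them, against 11664 to 15580 CPM in granule nuclei. Precursors and mature cells both had CNTN1, CNTN2 was high from the premyelinating stage on, and CNTNAP5 was a gene of the precursors.

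**Figure D3:**
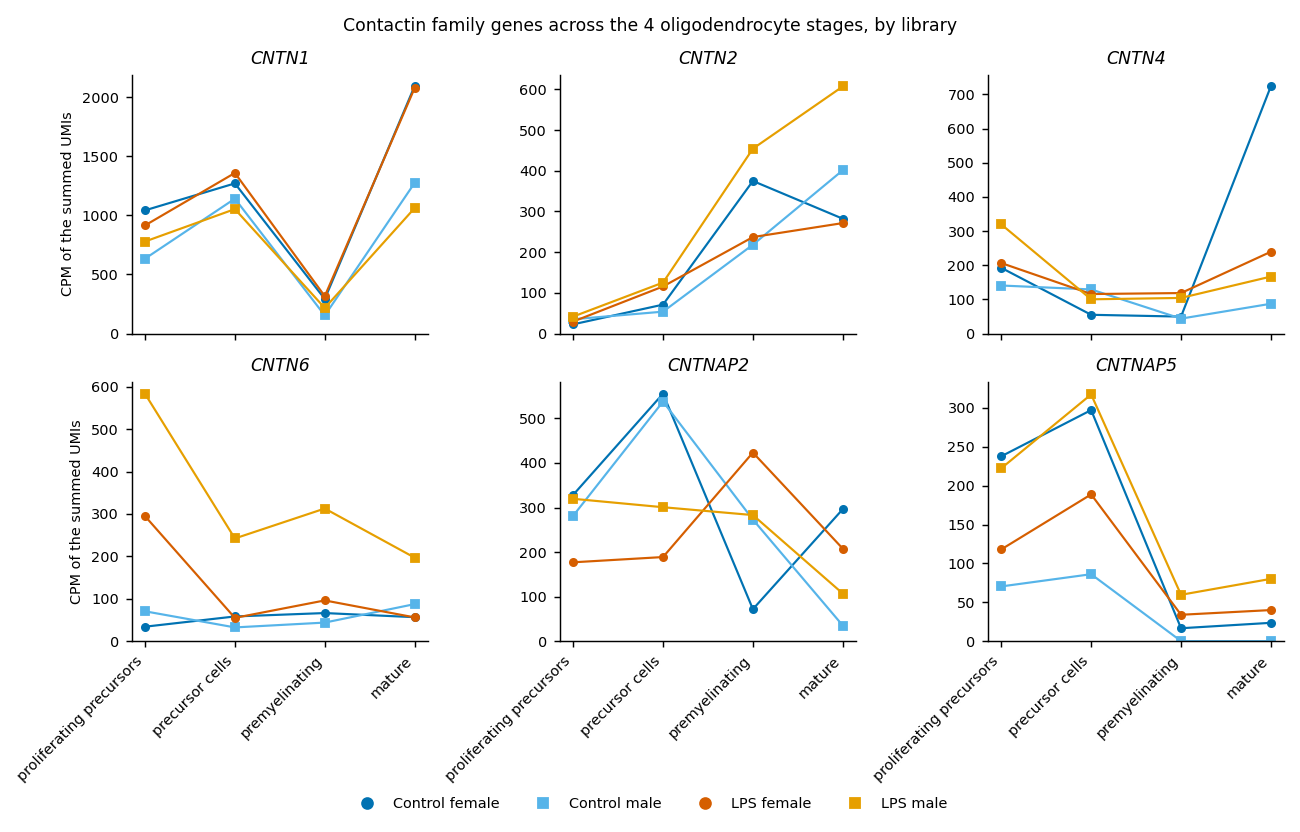
Level of each gene (vertical axes, CPM of the summed UMIs, linear from 0) in 4 stages of the oligodendrocyte lineage, each line and marker being 1 library. CNTN1 lies between 153 and 316 CPM in premyelinating cells, its lowest stage in all 4 libraries.

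CNTN1 had 1270, 1140, 1358 and 1052 CPM in oligodendrocyte precursor cells (1205 ± 135), and 292, 153, 316 and 216 CPM in premyelinating cells (244 ± 74.4). Mature oligodendrocytes had 2093, 1274, 2076 and 1061 CPM (1626 ± 537). The premyelinating values were below those of all other stages without overlap, and in mature cells the female libraries were the higher ones.

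CNTN2, which oligodendrocytes as well as axons place at the juxtaparanode, had 32.2 ± 8.11 CPM in proliferating precursors and 71.1, 53.8, 116 and 125 CPM (91.5 ± 34.5) in oligodendrocyte precursor cells. It had 375, 218, 237 and 454 CPM in premyelinating cells (321 ± 113) and 282, 401, 272 and 607 CPM in mature cells (391 ± 156). The last 2 stages overlapped with each other and were above both earlier stages in every library.

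CNTNAP5 had 222 ± 107 CPM in oligodendrocyte precursor cells and 162 ± 81.1 CPM in proliferating precursors. It had 27.5 ± 25.5 CPM in premyelinating and 35.9 ± 33.7 CPM in mature cells. Both precursor stages were above both later stages in each library, although ranges over libraries overlapped between proliferating precursors and mature cells. CNTN3 and CNTNAP4 were at or near 0 in all 4 stages, with no mean over 13.0 CPM.

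The mean levels over 22 classes and granule clusters, on a log2 scale with 1 CPM added, gave for each member the genes most like it among 11690 genes. These correlations are descriptions over groups that share libraries. CNTN2 was most like TMCC2 (Pearson r = 0.94), B3GAT1 (0.89) and BAHCC1 (0.88). CNTNAP5 was most like PTPRR (0.92), ASIC2 (0.90) and IQSEC3 (0.85), and CNTN3 like an unnamed gene, ENSMMUG00000039590 (0.89), PLEKHD1 (0.83) and PRMT8 (0.82). CNTN6 was most like GRIN1, a subunit of the NMDA receptor (0.90), RAB3C (0.85) and NPTXR (0.83). CNTN5 was most like CDH18, a cadherin (0.90), FRMPD4 (0.88) and MAP7D2 (0.88), and CNTNAP2 like MMP24 (0.90), CACNA1G, a calcium channel (0.89), and ATP8A2 (0.87). For CNTNAP4 the genes were ITGA3, an integrin (0.88), SLC6A15 (0.83) and CAMSAP3 (0.83). CNTN1 and CNTN4 had the weakest matches. These were SCRN1 (0.82), FNBP1 (0.80) and ERBB4 (0.78) for CNTN1 and H2AFY2 (0.78), KCNA3 (0.75) and CDON (0.75) for CNTN4. Between members the highest correlation was that of CNTN5 with CNTNAP2 (0.80).

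By the RefSeq gene order of the T2T-MMU8v2.0 assembly, a build other than that of the counts, CNTN3, CHL1, CNTN6, LOC144339536 and CNTN4 lie one after another on chromosome 2. CNTN2 lies next to NFASC on chromosome 1.

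Known binding partners were described from a list of 24 genes, of which 23 were found. Among the L1 family, which are adhesion molecules that pair with contactins, granule nuclei had NRCAM at 582 ± 112 CPM and CHL1 at 343 ± 31.2 CPM. NRCAM was highest in mean in migrating cells (1218 ± 180 CPM), and CHL1 reached 604 ± 45.2 CPM in later cells. Oligodendrocytes had NFASC, the glial partner of the paranodal complex, at 812 ± 84.7 CPM, with 1600 ± 409 CPM in premyelinating and 1391 ± 203 CPM in mature cells.

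PTPRG and PTPRZ1 are receptor phosphatases to which contactins bind. PTPRG had 1674 ± 541 CPM in granule nuclei, 3827 ± 753 CPM in migrating cells and 734 ± 255 CPM in later cells. PTPRZ1 had 1586 ± 277 CPM in oligodendrocytes and 3516 ± 349 CPM in their precursor cells. Of the amyloid precursor family, APP had 597 ± 154 CPM in granule nuclei and 634 ± 102 CPM in oligodendrocytes.

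Among matrix and signaling partners NCAM1 had 1068 ± 112 CPM in granule nuclei and 1498 ± 222 CPM in oligodendrocytes. TNR, a matrix protein made by oligodendrocytes, had 725 ± 241 CPM in the lineage and 1627 ± 291 CPM in premyelinating cells. Of the channels and scaffolds of the juxtaparanode, CASK had 800 ± 192 CPM in granule nuclei and DLG2 5425 ± 2453 CPM in Purkinje cells. CNTNAP1, the partner of CNTN1, had 34.3 ± 6.59 CPM in granule nuclei, with its highest stage mean in migrating cells (72.3 ± 18.1 CPM).

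LPS was compared with Control on UMIs summed per library and class, with the quasi-likelihood test of edgeR over all genes. Its p-values measure the spread between 2 fetuses per group. A gene was called at an adjusted p under 0.1 and a log2 fold change over 0.25 in size. In granule nuclei 0 of 9 members were called, where 0% of the 14868 genes tested were called. At an unadjusted p under 0.05 there were 28 genes in edgeR and 67 in DESeq2, which also called 0. In these nuclei 5 members had a log2 fold change above 0 and 4 below, with a median of 0.25 against 0.0098 over all genes. No member had both LPS libraries above or below both Control libraries, whereas 7.12% of all genes were higher and 5.06% lower in that sense.

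The largest granule difference among the members was that of CNTN6 (log2 fold change 0.77, SE 0.55, edgeR adjusted p = 1.00). Its values of 576 and 296 CPM in Control and 506 and 1007 CPM in LPS overlapped. Between the 2 females the log2 ratio of LPS to Control was -0.19 and between the 2 males 1.76. CNTNAP2 came next (0.41, SE 0.74, edgeR adjusted p = 1.00), with a log2 ratio of 1.01 between females and -0.90 between males. The remaining 7 members had log2 fold changes between -0.23 (CNTN5, SE 0.50) and 0.27 (CNTNAP5, SE 0.30).

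**Figure D4:**
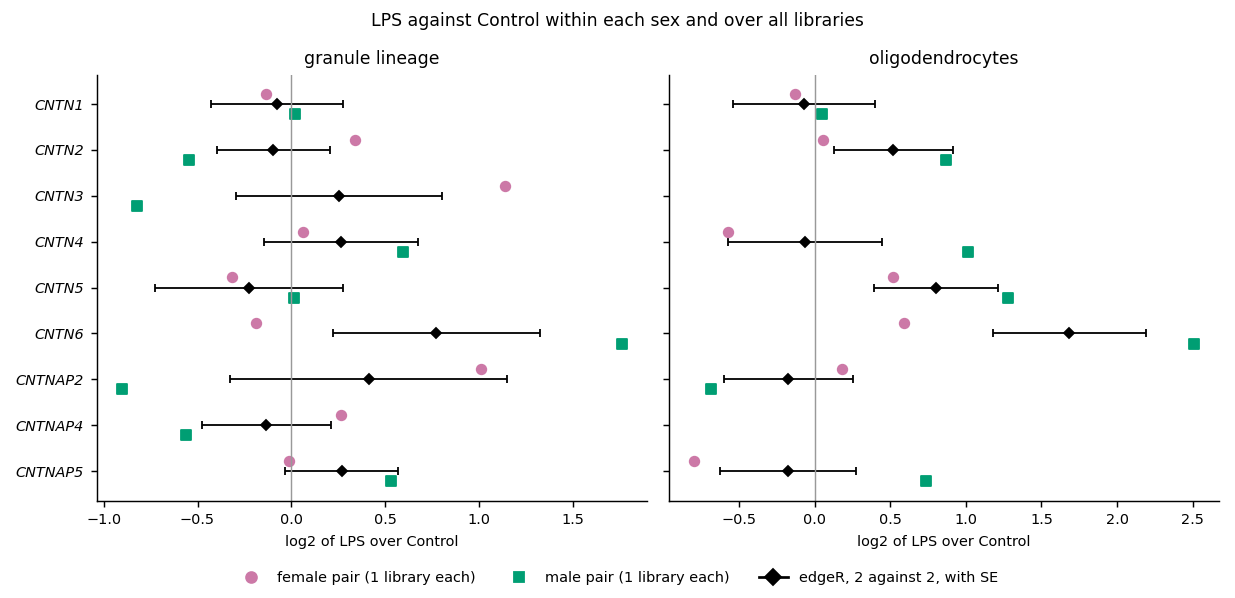
Log2 ratio of LPS to Control (horizontal axes) for each gene in granule nuclei (left) and oligodendrocytes (right). Circles are the ratio between the 2 female libraries and squares that between the 2 male libraries (1 CPM added), and diamonds with bars are the edgeR log2 fold change ± SE over all 4 libraries. In granule nuclei CNTNAP2 lies at 1.01 for females and -0.90 for males. CNTN3 and CNTNAP4 were not tested in oligodendrocytes.

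Stage by stage, CNTN6 had both LPS libraries above both Control libraries in the first 5 granule clusters, from the EXO1 cluster to the KIAA1217 cluster. Between 7.63 and 9.85% of all genes were higher in that sense in these clusters. In the PIF1 cluster CNTN6 had 516 and 322 CPM in Control and 723 and 609 CPM in LPS. In the EXO1 cluster it had 416 and 379 CPM in Control against 565 and 694 CPM. In the 3 last clusters the groups overlapped, with 1147 and 420 CPM in Control and 733 and 1175 CPM in LPS in mature cells. With free RNA subtracted, committing cells had 548 and 612 CPM in Control and 1096 and 682 CPM in LPS, and migrating cells 18.7 and 36.3 against 67.3 and 124 CPM. No member was called in any cluster.

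Among the other members, those with groups apart differed by cluster. CNTN5 and CNTNAP5 were lower in both LPS libraries in the EXO1 cluster, as were 8.35% of genes there. CNTN5 had 136 and 149 CPM in Control against 109 and 91.5 CPM, and CNTNAP5 had 63.3 and 80.3 against 32.9 and 54.9 CPM. Later in the series CNTNAP5 was higher in both LPS libraries in the KIAA1217 cluster (8.37% of genes) and in later cells (8.71% of genes). With free RNA subtracted, CNTNAP5 had 12.2 and 0 CPM in Control and 15.4 and 20.7 CPM in LPS in the KIAA1217 cluster. CNTN3 was higher in the CHRM3 cluster (8.97% of genes), on 14 and 10 UMIs in Control and 24 and 14 in LPS. With free RNA subtracted it had 0.388 and 0.119 against 5.17 and 0.784 CPM there. CNTNAP4 was higher in mature cells (7.73% of genes), on 16 and 7 UMIs in Control and 23 and 79 in LPS.

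In oligodendrocytes 0 of the 7 members tested were called, where 0% of 8079 genes were called and 83 had an unadjusted p under 0.05 in edgeR. CNTN3 and CNTNAP4 were too low to be tested. Among them 3 had a log2 fold change above 0 and 4 below, with a median of -0.06 against 0.0087 over all genes. CNTN5 and CNTN6 were higher in both LPS libraries than in both Control libraries, as were 11.7% of all genes, and none was lower (9.9% of genes). Without the 40 nuclei of the unnamed cluster, an alternative chosen after the values were seen, 0 of 7461 genes tested were called, CNTN6 was higher (11.3% of genes), CNTNAP2 was lower (10.7% of genes), and CNTN5 overlapped between the groups.

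CNTN6 had 84.3 and 64.3 CPM in Control and 127 and 371 CPM in LPS oligodendrocytes. Its log2 fold change was 1.68 (SE 0.51, edgeR adjusted p = 1.00), one of the 83 genes under 0.05 before adjustment, with a log2 ratio of 0.59 between females and 2.51 between males. Without the LPS male library the log2 fold change was 0.79. With sex as a block it was 1.47 (SE 0.29, edgeR adjusted p = 0.000369), in a fit that called 0.458% of all genes. With group and sex fitted on 4 libraries, such a p-value leans on the spread of other genes. Without the unnamed cluster the values were 56.8, 51.8, 85.9 and 275 CPM, with a log2 fold change of 1.69 (SE 0.54, edgeR adjusted p = 1.00), or 1.43 (SE 0.34, edgeR adjusted p = 0.0297) with sex as a block. The LPS male library had the highest CNTN6 in free RNA as well, and with free RNA subtracted the oligodendrocyte values were 40.9, 33.0, 116 and 214 CPM. Its share of mature oligodendrocytes was 40.5%, against 12.5 to 15.9% in the others. The part of these differences in the result was not tested.

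**Figure D5:**
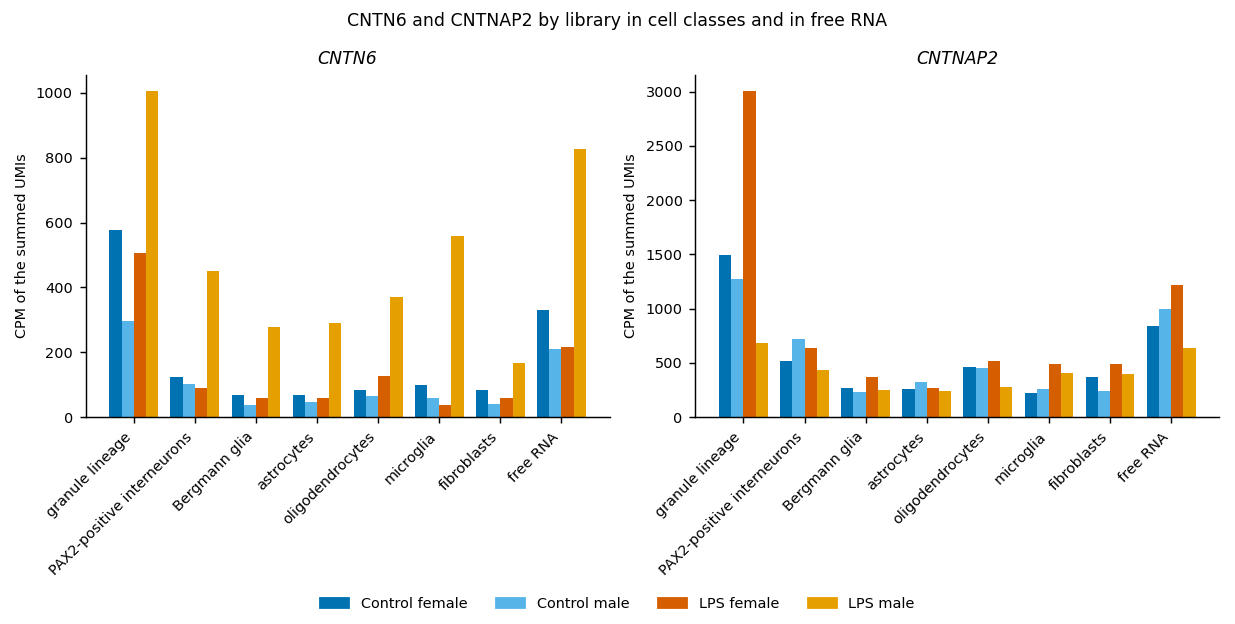
Level of CNTN6 (left) and CNTNAP2 (right) in 7 cell classes and in free RNA (vertical axes, CPM of the summed UMIs, linear from 0), 1 bar for each library. The LPS male bar of CNTN6 is the highest in all 7 classes shown, though not in every class, and in free RNA, where it reaches 827 CPM.

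CNTN5 had 73.9 and 45 CPM in Control and 107 and 111 CPM in LPS oligodendrocytes, so that the groups did not overlap. Its log2 fold change of 0.80 (SE 0.41, edgeR adjusted p = 1.00) did not pass. The unnamed cluster had 365 and 196 CPM in Control and 708 and 224 CPM in LPS. Without it the remaining oligodendrocytes had 46.7 and 22.2 CPM in Control and 19.98 and 81.5 CPM in LPS, which overlapped, with a log2 fold change of 0.44 (SE 0.68, edgeR adjusted p = 1.00). Over all 467 nuclei CNTN5 was lower than in granule nuclei in every library.

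Single stages of the lineage differed among themselves. In oligodendrocyte precursor cells CNTNAP2 was lower in both LPS libraries, at 556 and 538 CPM in Control and 189 and 301 CPM in LPS, where 10.3% of genes were lower. CNTN5 was too low to be tested there, with 16 and 4 UMIs in Control and 1 and 2 UMIs in LPS. CNTN2 was higher there in both LPS libraries (116 and 125 against 71.1 and 53.8 CPM), as were 11.8% of genes. In premyelinating cells 3 of the 5 members tested were higher in both LPS libraries, where 12.7% of genes were higher. CNTNAP2 had 71.7 and 273 CPM in Control against 423 and 283 CPM, CNTN6 had 66.2 and 43.7 against 96.0 and 313 CPM, and CNTN4 had 49.6 and 43.7 against 119 and 104 CPM. In the same order of libraries these rest on 13, 25, 75 and 38 UMIs of CNTNAP2, 12, 4, 17 and 42 of CNTN6 and 9, 4, 21 and 14 of CNTN4. There were 23 to 27 nuclei per library. With free RNA subtracted CNTNAP2 had 71.7 and 273 CPM against 423 and 261 CPM, which overlapped. The estimated free share was 5.92% in the LPS male library and 0% in the others, so only the LPS male value was lowered.

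Over all 23 classes and stages with enough nuclei, 174 tests were made on members and 0 passed. In 31 of them both LPS libraries were above both Control libraries and in 6 below, and CNTN6 made up 9 of the 31 and 0 of the 6. With free RNA subtracted 34 of these 37 were apart in the same direction, and the groups overlapped in the other 3. The estimated free share was 0% in LPS male Purkinje and Golgi cells, and in premyelinating cells of every library but the LPS male. Nothing was subtracted there, so in these cells the libraries were not corrected equally and the subtraction decides nothing. The classes and stages tested share libraries, and stages are parts of classes, so the counts are not independent. Over the 12 classes tested, 19.4% of member tests were higher and 3.23% lower, where the classes' own shares over all genes ran from 7.12 to 13.8% and from 5.06 to 14.7%. Over the 8 granule clusters 13.6% of member tests were higher and 3.03% lower, where shares over all genes ran from 7.63 to 9.85% and from 5.29 to 10.4%. Over 3 oligodendrocyte stages the member shares were 26.7 and 6.67%, on 15 tests, and those over all genes 11.8 to 12.7% and 9.28 to 12.8%.

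In Purkinje cells CNTN4, CNTN5 and CNTN6 were higher in both LPS libraries, as were 10.5% of genes, and none was lower (7.73% of genes). CNTN5 had 314 and 542 CPM in Control against 952 and 598 CPM, and CNTN6 had 540 and 224 against 597 and 606 CPM. CNTN4 had 135 and 30.5 against 153 and 207 CPM. The libraries had 18 to 56 Purkinje nuclei each. Fibroblasts had 4 members higher (CNTN1, CNTN4, CNTNAP2 and CNTNAP5, 13.8% of genes) and microglia 3 (CNTN4, CNTNAP2 and CNTNAP5, 8.78% of genes). In every library these members were below their level in granule nuclei. Granule markers summed to 2316, 3228, 1945 and 7787 CPM in microglia and to 3279, 2288, 3045 and 5019 CPM in fibroblasts. The LPS male library was the highest in both.

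Molecular layer interneurons had CNTN5 and CNTNAP4 higher in both LPS libraries (11.7% of genes) and CNTN3 lower (6.45% of genes). CNTN3 had 112 and 117 CPM there in Control and 68.6 and 99.2 CPM in LPS. In Golgi cells CNTN2 was higher (8.3% of genes) and CNTN1 lower (8.78% of genes), the latter at 247 and 248 CPM in Control against 223 and 198 CPM. CNTN2 had 17.5 and 15.2 CPM there in Control and 35.2 and 63.3 CPM in LPS, below its level in free RNA in every library. The LPS male library had 15 Golgi nuclei. With free RNA subtracted CNTN1 had 207 and 194 CPM in Control and 198 and 198 CPM in LPS Golgi cells, which overlapped. The estimated free shares were 8.69 and 11.9% in Control and 6.49 and 0% in LPS, so the LPS male value was not lowered. PAX2-positive interneurons had CNTN1 higher (9.85% of genes) and none lower (9.16%). Bergmann glia had CNTN2 lower (7.78% of genes) and none higher (9.18%). Proliferating astroglia had CNTN1 and CNTN6 higher (10.6% of genes) and none lower (11.4%). With free RNA subtracted CNTN6 overlapped there, at 53.0 and 44.7 CPM in Control and 92.5 and 44.8 CPM in LPS. Astrocytes had no member higher (9.65% of genes) or lower (8.3%), and neither had endothelial cells (8.87 and 13.6%).

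Of the binding partners, 0 of 23 were called in granule nuclei, with 13 above 0, 10 below and a median log2 fold change of 0.03. In oligodendrocytes 0 of 22 were called, with 9 above 0, 13 below and a median of -0.03. All 3 receptor phosphatases were below 0 in granule nuclei, from -0.37 to -0.0007, and all 3 amyloid precursor genes above, from 0.0099 to 0.17. In oligodendrocytes the lowest value was that of TNC, a matrix protein singled out after its value was seen, at -1.81.

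More genes separated the sexes than the treatments. In granule nuclei 30.8% of all genes had both female libraries above both male libraries and 37.5% had both below, and the female minus male differences of the Control and LPS pairs correlated over 14868 genes (Pearson r = 0.726, a description across genes, which are not independent replicates). Of the members CNTN1, CNTN4, CNTN5 and CNTNAP2 were above in both females in granule nuclei, as the values listed for each show, and none was below. Over the 23 groups, between 18.6 and 30.8% of all genes had both females above and between 24.2 and 42.6% had both below. CNTN4 was above in both females in 12 of 23 and below in 0, and CNTNAP2 above in 11 of 23 and below in 1. CNTN1 was above in 12 and below in 5 of 23, with the females below in the 3 clusters before migration and above in the 5 from migration on. CNTN2 went the other way, below in both females in 12 of 22 groups and above in 1. CNTN6 had 2 groups above and 1 below of 22. Treatment was balanced between the sexes, and no test was made of sex, which cannot be told apart from depth and mitochondrial share.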

How the data were processed

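Nuclei of 4 fetal cerebella were sequenced by the authors with the 10x Genomics 3′ kit, and Cell Ranger counted exonic and intronic reads. The submitters' processing notes name Cell Ranger version 4 and the build Mmul_8.0.1, while another text of theirs gives a different version. The deposited values are UMI counts per gene and barcode for every barcode, not filtered, normalized or pooled. Ambient RNA removal by the authors is not in them.

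A barcode was kept as a nucleus when it showed 500 genes or more, unless over 5% of its UMIs were mitochondrial, which removed 22 barcodes. They were integrated with Seurat 5.3.0 in R 4.3.3 (2000 variable features without the contactin genes, 30 dimensions, resolution 0.5). Clusters were named by marker lists where at least 3 markers were raised. Those of low UMI number or with over 50% of doublets by Scrublet (scanpy 1.11.5) stayed unnamed, and doublets were otherwise kept. In both male libraries the automatic Scrublet threshold marked 0% and was replaced by the median threshold of the female libraries. Granule nuclei and oligodendrocytes were clustered again for stages. Free RNA was profiled in barcodes with at most 100 UMIs, and its share of a class was the 0.25 quantile of the ratios of other classes' markers. This share was 0% in some groups with few nuclei, where nothing was subtracted.

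UMIs were summed per library and class and tested with edgeR 4.0.16 (filterByExpr, TMM, quasi-likelihood test, Benjamini-Hochberg adjustment over all genes tested), the fetus being the replicate, in groups with at least 10 nuclei in every library. The authors gave an adjusted p of 0.1 and a log fold change of 0.25 with no base, taken here as log2. DESeq2 1.42.0 was the other tool. Other steps used Python 3.11.15, numpy 2.4.6, scipy 1.17.1, pandas 2.3.3 and matplotlib 3.10.9. The edgeR test was tried on simulated data with known changes. The simulated spread between libraries was set in advance and not fitted to these data, so the trial does not give the power reached here. An exact permutation test of 2 against 2 cannot go below p = 0.333, and none was used. Intervals from sequencing depth cover counting error only and were not used between fetuses.

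All 9 members are named. Partners are named where among the 2 highest of their role in a class by CPM, which is not corrected for length, and for each member the 3 genes of highest correlation among those with at least 20 CPM in a class or stage. The members, lists and tests were chosen with earlier results of these data known. Alternatives were other normalizations, filters, nuclei, doublet and free RNA treatments, a marker score per nucleus, sex as a block, stage weights, oligodendrocytes without their unnamed cluster (chosen after seeing the data) and leaving out each library.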

Additional observations from a re-analysis of the deposited data

Results flagged for a closer look

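In granule nuclei 8 of 9 members, all but CNTN4, had log2 ratios of opposite sign between the 2 females and between the 2 males. For CNTN1, CNTN5 and CNTNAP5 1 of the ratios was near 0. The share of all genes with opposite signs was not counted, so the count has no reference and is not read as a trait of the members. Each arm had 1 library, and the differences below were not tested. The log2 ratio of LPS to Control of CNTNAP2 was 1.01 among females and -0.90 among males, a difference of 1.91. For CNTN3 the ratios were 1.13 and -0.82 and the difference 1.96, on levels of no more than 21.8 CPM. CNTN2 had 0.34 and -0.54, with a difference of 0.884, and CNTNAP4 had 0.26 and -0.56, with a difference of 0.822. CNTN6 had -0.19 and 1.76, with a difference of -1.95. CNTNAP5 had -0.015 and 0.53, a difference of -0.547, CNTN5 -0.32 and 0.013, a difference of -0.330, and CNTN1 -0.13 and 0.019, a difference of -0.152.

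In oligodendrocytes 4 of the 7 members tested had ratios of opposite sign, again without a share over all genes. CNTN4 had a log2 ratio of -0.58 among females and 1.01 among males, a difference of -1.59, and CNTNAP5 had -0.80 and 0.74, a difference of -1.53. CNTNAP2 had 0.18 and -0.68, a difference of 0.863, and CNTN1 -0.13 and 0.047, a difference of -0.178. These differences were not tested either. Sex, depth and mitochondrial share divide the libraries in the same way and cannot be told apart.

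In the 3043 barcodes of the clusters that took no class name, CNTN3 had a mean of 15.6 CPM in the LPS libraries, 18.0 CPM in the female and 13.3 CPM in the male one, against 7.31 CPM in the Control female and 12.8 CPM in the Control male library. CNTN2 had 166 and 139 CPM in the LPS female and male libraries against 186 and 238 CPM in the Control female and male ones. Of 10424 genes with a mean of at least 10 UMIs per library in these barcodes, 9.69% were higher in both LPS libraries and 9.24% lower, and no test was made. Of these barcodes, a cluster of low UMI number held 1862 barcodes of the LPS male library and 314, 50 and 105 of the Control female, Control male and LPS female libraries.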

How the results depend on the processing

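In granule nuclei 0 genes were called under each alternative run. In oligodendrocytes, where 0 were called, sex as a block gave 37 genes, no filter on low counts 9 and DESeq2 1 (adjusted p under 0.1). Without the unnamed cluster, chosen after seeing the data, 0 were called, or 24 with sex as a block. Leaving out 1 library gave 0 to 17 genes, with 13 without the Control female, 17 without the Control male, 12 without the LPS male and 0 without the LPS female. The lone library of an arm is then assumed to vary like the other group.

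Over other settings 97 of 99 member results in granule nuclei and 67 of 77 in oligodendrocytes kept their direction and side of the threshold. The log2 fold change of CNTN2 in granule nuclei turned to 0.036 without the mature cluster and to 0.10 with equal weight for each cluster. In oligodendrocytes CNTN1 turned to 0.0458 with a marker score per nucleus, and CNTNAP5 to 0.0459 with doublets removed. CNTN4 turned to 0.10 with sex as a block, 0.0371 with doublets removed and 0.10 with the marker score. Without the unnamed cluster CNTNAP5 turned to 0.15, and with sex as a block as well to 0.29, while CNTN1 turned to 0.0014. CNTN6 passed at 1.47 with sex as a block and at 1.43 in the block without the unnamed cluster. The cause was not tested.

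Without 1 library, granule log2 fold changes ran from -0.32 to 0.26 for CNTN1, -0.30 to 0.11 for CNTN2, -0.49 to 0.73 for CNTN3, -0.11 to 0.82 for CNTN4, -0.67 to 0.48 for CNTN5, 0.19 to 1.44 for CNTN6, -1.03 to 1.12 for CNTNAP2, -0.41 to 0.10 for CNTNAP4 and 0.06 to 0.45 for CNTNAP5. Those in oligodendrocytes ran from -0.44 to 0.40 for CNTN1, 0.04 to 0.85 for CNTN2, -0.67 to 1.10 for CNTN4, 0.46 to 1.34 for CNTN5, 0.79 to 2.20 for CNTN6, -0.78 to 0.24 for CNTNAP2 and -0.65 to 0.60 for CNTNAP5.

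The class with the highest level was the same for 8 of 9 members by share of thinned nuclei, CNTNAP2 then being highest in Purkinje cells, for 9 with free RNA subtracted, and for 7 to 9 without 1 library. The highest granule and oligodendrocyte stages were the same for 8 to 9 members without 1 library. With 2 fetuses per group, and as few as 8 nuclei in a library among the 13 classes ordered, the number of fetuses and nuclei limits the precision.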
